A study of Mus musculus with 5 samples.

Results

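8 genes of cholesterol synthesis and its feedback control were followed in blood stem and progenitor cells of 3 Gabbr1 null and 2 wild-type (WT) libraries. They were chosen by name, as 8 of the 39056 genes of the count table: Hmgcs1, Idi1, Fdps, Fdft1, Sqle, Lss, Cyp51 and Insig1. All 8 are genes of synthesis or of its control, and none encodes a lipoprotein receptor, so uptake was read from a separate list of receptors and transporters. Both groups were C57BL/6 mice at postnatal day 15. The null mice are labelled as mutants of Gabbr1, the gene of a GABA-B receptor subunit, and carried no other allele or treatment that the labels give. The cells were sorted from bone marrow as the LSK fraction (lineage-negative, Sca-1-positive and Kit-positive), about 12000 per library. Libraries were made with a low-input kit that removes ribosomal sequences, while the molecule label reads polyA RNA. The extraction label speaks of 4 animals per genotype, and no label ties a library to a single animal. The p-values therefore describe the spread among libraries, and how far that is a spread among animals is not given.

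Cells make cholesterol from acetyl-CoA through mevalonate, farnesyl diphosphate, squalene and lanosterol. When sterol in the endoplasmic reticulum is low, SCAP carries SREBP proteins to the Golgi, where they are cut and released to switch on nearly every enzyme of the pathway. When sterol is plentiful, INSIG proteins hold SCAP back, and Insig1 is itself an SREBP target. In marrow, dividing progenitors need cholesterol for new membrane, and the side branches of the pathway supply the lipid anchors of small GTPases.

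Total counts lay between 7530382 and 8150774 in null and were 7980630 and 6972753 in WT. Gabbr1 had 289, 264 and 268 counts in null, against 402 and 403 in WT (edgeR adjusted p = 0.0361, log2 fold change -0.59, SE 0.13). That call was lost in 4 of 5 fits that left out a library (edgeR adjusted p 0.0722 to 0.38), with log2 fold changes of -0.48 to -0.71 over the 5 fits. Reads of Gabbr1 were thus present in every library labelled null, and since the labels do not say which exons were removed, a count over the whole gene cannot check the genotype. Null library 1 had 22532 counts of Xist and 0 counts over 4 Y-linked genes. Null libraries 2 and 3 had at most 21 Xist counts and 1540 and 1567 Y-linked counts, so library 1 was not a repeat of the same RNA. WT libraries 1 and 2 had 5 and 1 Xist counts and 1479 and 1140 Y-linked counts. Sex, which the labels do not give, was by these genes uneven between the groups, and it was not a term of the fit. Markers of other cell types were higher in null: the summed level of 10 B lineage markers was 640 to 1123 CPM (counts scaled to library size) in null and 83.5 to 186 CPM in WT. The same sum for 10 endothelial and stromal markers was 109 to 204 CPM in null and 25.0 to 29.3 CPM in WT, and for 5 cartilage markers 19.7 to 146 CPM in null and 0.246 to 0.427 CPM in WT. The sum of 6 mature neutrophil markers was 2192, 584 and 131 CPM in null libraries 1, 2 and 3, and 142 and 106 CPM in WT. Of the tested markers, 10 of 10 B lineage genes passed as higher, against 2.15% of all tested genes. For endothelial and stromal genes it was 7 of 9, for cartilage 3 of 3 and for mature neutrophils 0 of 6. The tested cartilage genes, and Lepr, Sparc and Igfbp5, had at most 7 counts in any WT library. Cdh5, Kdr, Cxcl12 and Col1a2 had 5 and 12, 5 and 14, 3 and 18, and 10 and 22 counts in WT. All of these genes, which include every endothelial, stromal and cartilage gene that passed, met the filter on low counts only through null libraries. Their calls therefore add nothing to the levels above. The erythroid sum was 3.58 to 35.0 CPM in null and 5.13 to 5.54 CPM in WT, with 0 of 2 passing. Sox9, Hba-a1 and Hba-a2 had no count in any library, and Col2a1, Acan and Lepr had none in WT. The part of these cells in the values below was not tested, and in bulk RNA fewer cells of a type and less RNA per cell cannot be told apart. Of the genes of the sort itself, Kit was at 864, 987 and 883 CPM in null, against 995 and 1049 CPM in WT. Ly6a, which encodes Sca-1, was at 29.9, 12.9 and 24.0 CPM in null, against 26.8 and 30.3 CPM in WT.

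The promoters of 3 of these genes, all known SREBP targets, are shown. Hmgcs1 and Insig1 had the highest and the lowest log2 fold change of the 8, and Cyp51 is shown beside them. RefSeq's table for GRCm38.p6 held a promoter, 250 bases before to 50 after the start site, for 5 of the 8 genes. Capitals mark matches, on either strand, to the core of the sterol regulatory element (TCACCNCA), to the CCAAT box bound by NF-Y, a known partner of SREBP (CCAAT, or ATTGG on the other strand), and to the E-box CACGTG. No match overlapped another. The regions are chr13:119690101-119690400 on the plus strand for Hmgcs1, chr5:4104648-4104947 on the minus strand for Cyp51 and chr5:28071162-28071461 on the plus strand for Insig1, each read 5′ to 3′.
Hmgcs1: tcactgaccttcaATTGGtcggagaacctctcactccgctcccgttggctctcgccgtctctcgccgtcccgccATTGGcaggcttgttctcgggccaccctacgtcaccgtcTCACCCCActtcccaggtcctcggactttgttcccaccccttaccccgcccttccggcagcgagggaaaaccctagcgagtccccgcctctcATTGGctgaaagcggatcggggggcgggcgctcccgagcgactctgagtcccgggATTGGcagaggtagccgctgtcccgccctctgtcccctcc
Cyp51: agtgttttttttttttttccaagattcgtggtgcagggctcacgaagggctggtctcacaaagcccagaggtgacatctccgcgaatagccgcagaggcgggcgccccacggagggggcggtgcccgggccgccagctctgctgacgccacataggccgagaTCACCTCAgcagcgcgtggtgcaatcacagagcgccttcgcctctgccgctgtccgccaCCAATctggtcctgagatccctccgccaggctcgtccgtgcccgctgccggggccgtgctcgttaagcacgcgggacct
Insig1: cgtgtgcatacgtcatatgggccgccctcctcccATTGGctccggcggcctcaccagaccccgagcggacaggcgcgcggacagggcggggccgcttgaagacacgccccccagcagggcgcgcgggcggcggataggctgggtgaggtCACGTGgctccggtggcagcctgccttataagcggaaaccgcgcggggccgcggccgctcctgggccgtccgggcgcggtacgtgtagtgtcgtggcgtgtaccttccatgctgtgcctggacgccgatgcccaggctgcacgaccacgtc

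The sterol element core was found in 2 of the 5 promoters, in Hmgcs1 as TCACCCCA from position -137 and in Cyp51 as TCACCTCA from position -88, counted from the start site. It was found in 4.42% of the 32851 promoters of this length in the table. At least 1 CCAAT box lay in 5 of the 5, Idi1 and Lss included, against 37.4% of all promoters, and Hmgcs1 held 4 of them. The E-box was found in Insig1 alone of the 5, against 7.15% of all promoters. Idi1 and Lss, not shown, held neither the sterol element core nor the E-box, so the promoters shown are those with a match to either. A match describes these letters and says nothing on binding in these cells.

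No difference between genotypes passed the test in any of the 8 genes. 0 of 8 passed an edgeR adjusted p of 0.05, against 2.48% of the 13467 genes tested, and the lowest adjusted p of the 8 was 0.368. At an unadjusted p under 0.05, 1 of 8 was lower and 0 were higher in null, against 4.84% and 7.99% of tested genes. DESeq2 and limma-voom also passed 0 of 8. 6 of the 8 log2 fold changes were negative, with a median of -0.15 beside -0.0045 over all tested genes, and 50.8% of all tested genes were negative. In 4 of the 8 the null and WT libraries did not overlap in CPM, against 29.2% of tested genes. All 8 passed the filter on low counts.

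Hmgcs1 makes HMG-CoA from acetyl-CoA in the cytosol, an early step of the pathway. It lies on chromosome 13 from 119690379 to 119708260 (mm10). Its level was 34.0, 50.8 and 39.2 CPM in null libraries 1, 2 and 3, against 37.8 and 29.8 CPM in WT libraries 1 and 2. Null library 2 stood highest, the lowest was WT library 2, and the groups overlapped. The mean was 41.3 ± 8.61 CPM in null (SD, n = 3) and 33.8 ± 5.67 CPM in WT (SD, n = 2), and the fold of 1.22 (95% interval 0.928 to 1.61) did not pass (edgeR adjusted p = 0.57). Within null its highest library was 1.49 times its lowest, the widest range of the 8 genes in that group.

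Idi1 and Fdps carry the isoprenoid part of the pathway. Idi1, the isopentenyl diphosphate isomerase (chromosome 13, 8885501 to 8892451), had 42, 41 and 46 counts in null, against 55 and 32 in WT. That is 5.60, 5.41 and 5.67 CPM in null, against 6.77 and 4.56 CPM in WT, so the 3 null libraries lay between the 2 WT libraries. Its fold of 0.977 had a wide 95% interval, 0.627 to 1.52, and without WT library 1 the log2 fold change was 0.27, beside -0.03 with all libraries. Fdps, the synthase of farnesyl diphosphate (chromosome 3, 89093588 to 89101959), had 38, 37 and 48 counts in null, against 38 and 30 in WT. These counts overlapped between the groups. After scaling to library size, its levels of 5.06, 4.88 and 5.92 CPM in null lay above 4.68 and 4.27 CPM in WT, so this separation rests on the scaling. The fold was 1.18 (95% interval 0.752 to 1.85, edgeR adjusted p = 0.817).

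The next 3 enzymes take farnesyl diphosphate to lanosterol. Fdft1, squalene synthase (chromosome 14, 63145150 to 63179578), commits the flux to sterols and was at 16.0, 19.7 and 14.3 CPM in null, against 17.7 and 18.1 CPM in WT. Null libraries lay on both sides of WT, with a fold of 0.929 (95% interval 0.70 to 1.23, edgeR adjusted p = 0.888). Sqle, squalene epoxidase (chromosome 15, 59315077 to 59331192), a second control point of the pathway, was at 18.4, 17.4 and 21.8 CPM in null, against 23.6 and 20.2 CPM in WT. Null library 3 lay between the WT libraries, and the fold was 0.876 (95% interval 0.673 to 1.14, edgeR adjusted p = 0.727). Lss, lanosterol synthase (chromosome 10, 76531588 to 76557138), was at 15.2, 18.7 and 16.2 CPM in null, against 20.6 and 20.5 CPM in WT. Every null library was below both WT libraries, and the fold of 0.813 (95% interval 0.628 to 1.05) did not pass (edgeR adjusted p = 0.517).

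Cyp51, the lanosterol demethylase and a cytochrome P450 (chromosome 5, 4081145 to 4104746), was the steadiest of the 8 in null. It was at 28.8, 28.4 and 28.2 CPM in null, against 32.3 and 35.5 CPM in WT, and the groups did not overlap. The mean was 28.5 ± 0.284 CPM in null (SD, n = 3) and 33.9 ± 2.27 CPM in WT (SD, n = 2). The fold was 0.841 (95% interval 0.682 to 1.04, edgeR adjusted p = 0.502), and the log2 fold change stayed between -0.33 and -0.18 in the 12 alternative fits.

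Insig1, the brake on SREBP processing (chromosome 5, 28071363 to 28078662), had the lowest log2 fold change of the 8. It was at 18.9, 21.6 and 20.8 CPM in null, against 29.8 and 23.4 CPM in WT. All 3 null libraries were below both WT libraries, and WT library 1 stood apart from the other 4. The mean was 20.5 ± 1.40 CPM in null (SD, n = 3) and 26.6 ± 4.55 CPM in WT (SD, n = 2). Its fold was 0.769 (95% interval 0.597 to 0.991), or -0.38 on the log2 scale with an SE of 0.17; the edgeR p was 0.0434 before and 0.368 after adjustment. Without WT library 1 the log2 fold change was -0.20, and without WT library 2 it was -0.54. Insig1 is the gene counted above as lower at the unadjusted threshold. In DESeq2, and in edgeR without null library 1, null library 3 or WT library 1, that count was 0. Without null library 1, Hmgcs1 was instead higher at an unadjusted edgeR p of 0.0337 (adjusted p = 0.417, log2 fold change 0.41).

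**Figure D1:**
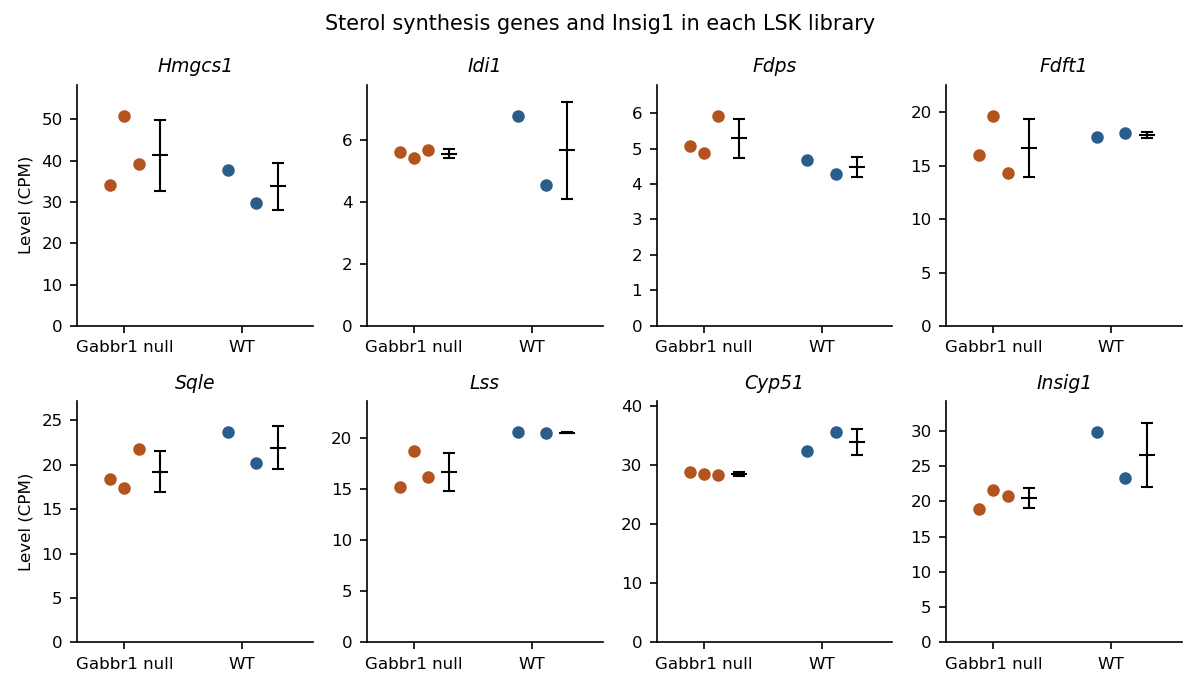
Level in CPM (y axis, from 0) of the 8 genes, with 1 point per library, Gabbr1 null on the left (n = 3) and WT on the right (n = 2); black marks give the mean and SD. Lss, Cyp51 and Insig1 lie lower in every null library than in either WT library, Fdps lies higher, and the other 4 genes overlap.

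Each 95% interval is for its gene alone, from a fit with genotype as the only term. The intervals do not cover the uneven sex or the part of other cell types. Over the 8 genes, the lowest 95% bound of the fold was 0.597, for Insig1, and the highest was 1.85, for Fdps. The summed level of the 8 genes was 142, 167 and 152 CPM in null and 173 and 156 CPM in WT, so null library 2 lay between the WT libraries. Relative to the WT mean, the median of the 8 on the log2 scale was -0.20, -0.08 and -0.13 in null libraries 1, 2 and 3, and 0.09 and -0.09 in WT libraries 1 and 2. 5 of the 8 genes were below the WT mean in each null library, and 6 of 8 in WT library 2.

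Levels were also set per length, as RPKM (CPM per kilobase) over the merged exons of each gene, to rank the 8 against each other. By the mean over all 5 libraries Hmgcs1 stood first, and in WT alone it was below Insig1 and Cyp51. It had 8.996 ± 1.87 RPKM in null and 7.35 ± 1.24 RPKM in WT (SD, n = 3 and 2). Insig1 followed at 6.62 ± 0.452 RPKM in null and 8.59 ± 1.47 RPKM in WT, and Cyp51 at 6.45 ± 0.0643 RPKM in null and 7.67 ± 0.515 RPKM in WT. The ranges of these 3 over the 5 libraries overlapped (6.48 to 11.1, 6.12 to 9.63 and 6.40 to 8.03 RPKM), so their order is not resolved. Fdft1 (3.38 to 4.65 RPKM) and Sqle (3.14 to 4.26 RPKM) overlapped each other and lay below them on this length. Lss (1.41 to 1.91 RPKM), Idi1 (1.30 to 1.93 RPKM) and Fdps (1.02 to 1.41 RPKM) came last, and neighbours among them overlapped. When the length of the principal coding transcript was used, Sqle moved ahead of Fdft1 (6.32 to 8.57 against 3.87 to 5.32 RPKM) and Fdps ahead of Idi1 (3.09 to 4.28 against 1.51 to 2.24 RPKM), so those orders depend on the transcript assumed. On that length Sqle also overlapped Insig1 (7.02 to 11.04 RPKM) and Cyp51 (7.18 to 9.02 RPKM).

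Several of these genes share sequence with others. Fdps and Idi1 have processed pseudogenes at 90% identity or more over at least 200 bases, and those present in the count table had at most 2 counts in any library. Fdft1 overlaps exons of Ctsb on the other strand, which had 912, 677 and 887 counts in null and 806 and 818 in WT, and also has a pseudogene with at most 1 count. Cyp51 overlaps exons of Akap9 on the other strand, with 297, 332 and 306 counts in null and 333 and 395 in WT. Hmgcs1, Idi1 and Lss overlap antisense or unverified transcripts, and Fdps a second gene model. How the counting treated strand and shared reads is not stated by the labels or processing notes, so the counts of these 6 genes are uncertain to that extent. Sqle and Insig1 had neither an exon overlap nor such a copy.

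The rest of the pathway was read from 14 further enzymes, and 0 of 14 passed in edgeR (2.15% of tested genes passed as higher and 0.334% as lower). In limma-voom 0 of 14 passed too, while DESeq2 passed Lbr as higher. The median log2 fold change of the 14 was -0.17, 10 were negative, and at an unadjusted p under 0.05, 3 were lower and 1 was higher, against 4.84% and 7.99% of tested genes. Lbr, the lamin B receptor, which anchors chromatin to the nuclear envelope and also acts as a sterol reductase, was the most abundant. It was at 658, 646 and 664 CPM in null, against 481 and 515 CPM in WT, and the groups did not overlap (edgeR adjusted p = 0.123, log2 fold change 0.40, SE 0.12).

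Pmvk and Dhcr7, named after their values were seen, were among the enzymes at an unadjusted p under 0.05 on the lower side. Pmvk, phosphomevalonate kinase, was at 8.93, 7.26 and 6.66 CPM in null, against 11.6 and 13.4 CPM in WT (edgeR adjusted p = 0.169). Dhcr7, which closes the synthesis of cholesterol by one route, was at 32.9, 32.7 and 33.3 CPM in null, against 41.1 and 44.4 CPM in WT (edgeR adjusted p = 0.207). In both genes the null libraries lay below both WT libraries. The 4 enzymes of this group of 8 that follow farnesyl diphosphate, Fdft1, Sqle, Lss and Cyp51, had log2 fold changes of -0.11, -0.19, -0.30 and -0.25. Over all 13 enzymes from squalene synthase to cholesterol, 10 were negative with a median of -0.19. Over the 8 enzymes from acetyl-CoA to farnesyl diphosphate, 5 were negative with a median of -0.08. Whether these stretches of the pathway differ was not tested.

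**Figure D2:**
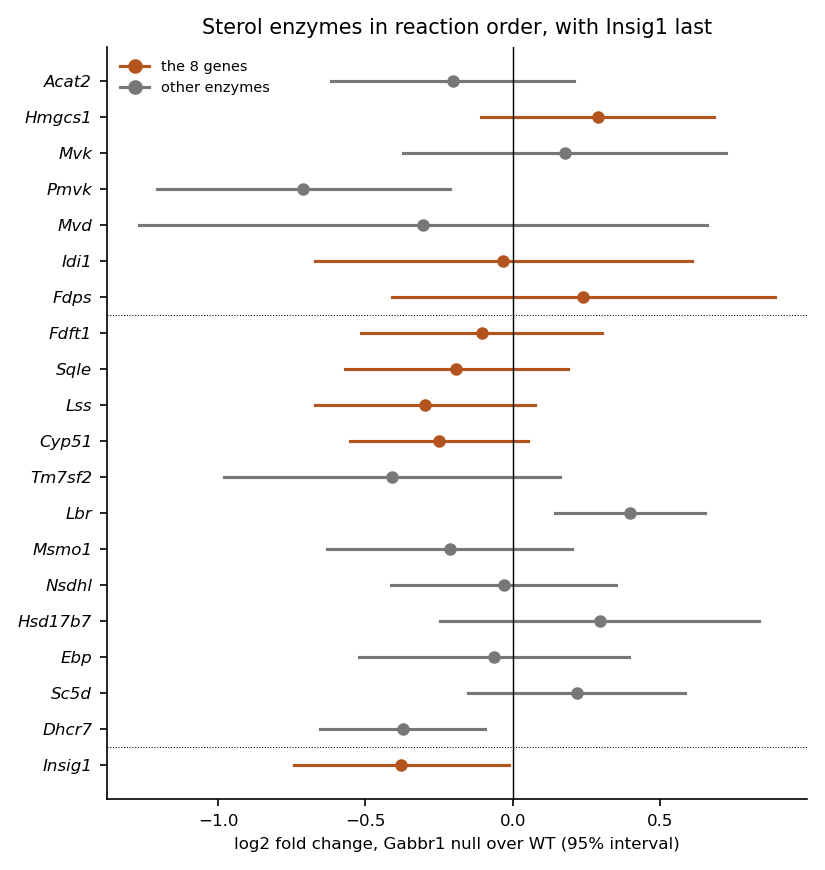
Log2 fold change of Gabbr1 null over WT (x axis) with its 95% interval for sterol enzymes in reaction order from top to bottom and Insig1 last, the 8 genes in orange and the other enzymes in grey. Dotted lines mark the end of the steps to farnesyl diphosphate and the end of the enzymes. The intervals of Hmgcs1, Idi1, Fdps, Fdft1, Sqle, Lss and Cyp51 include 0. Those of Insig1, Pmvk and Dhcr7 lie below 0 and that of Lbr above 0, and no gene shown passed after adjustment in edgeR.

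Of 10 tested genes that control SREBP, 0 passed under any of the 3 tools (edgeR, DESeq2, limma-voom). Their median log2 fold change was -0.0017, and 1 gene was lower at an unadjusted edgeR p under 0.05, against 4.84% of tested genes. That gene was Srebf2, which encodes the SREBP that drives sterol enzymes, at 283, 308 and 280 CPM in null, against 321 and 390 CPM in WT (edgeR adjusted p = 0.338, log2 fold change -0.29, SE 0.12). Mbtps1, the protease that makes the first cut in SREBP, was at 227, 247 and 233 CPM in null, against 217 and 250 CPM in WT. Insig2, the paralog of Insig1, named after its values were seen, was at 24.9, 22.6 and 19.2 CPM in null, against 17.9 and 19.9 CPM in WT, and its edgeR adjusted p was 0.645 at a log2 fold change of 0.24. Among 9 enzymes of the isoprenoid side branches 0 passed under any of the 3 tools (edgeR, DESeq2, limma-voom), and 0 reached an unadjusted p under 0.05. Its most abundant members, Fnta, a subunit of protein farnesyltransferase, and Dhdds, a subunit of the enzyme that makes dolichol precursors, had log2 fold changes of -0.15 ± 0.11 and -0.04 ± 0.12 (SE).

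Among the uptake genes, 1 passed the test. Of 14 tested uptake and transport genes, 1 was lower and 0 were higher, against 0.334% and 2.15% of tested genes. The gene was Vldlr, which encodes a receptor for triglyceride-rich lipoproteins that carry apolipoprotein E. Vldlr (chromosome 19, 27216484 to 27254231) was at 33.4, 30.0 and 24.8 CPM in null, against 56.3 and 60.7 CPM in WT. All 3 null libraries were below both WT libraries. The mean was 29.4 ± 4.36 CPM in null (SD, n = 3) and 58.5 ± 3.13 CPM in WT (SD, n = 2), a fold of 0.503 (95% interval 0.404 to 0.626, edgeR adjusted p = 0.00282). The call held in 11 of 12 alternative fits and was lost without WT library 2 (edgeR adjusted p = 0.117), where the log2 fold change was -0.94 beside -0.99 with all libraries. Those null libraries also held the higher sums of B lineage, endothelial and stromal, and cartilage markers, and their part in the Vldlr value was not tested.

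Lrp8 and Scarb1, further lipoprotein receptors named after their values were seen, did not pass. Lrp8, which like Vldlr binds apolipoprotein E and reelin, was at 49.2, 52.1 and 42.3 CPM in null, against 43.1 and 40.0 CPM in WT (edgeR adjusted p = 0.589). Scarb1, the HDL receptor, was at 70.2, 66.5 and 60.8 CPM in null, against 58.6 and 69.9 CPM in WT (edgeR adjusted p = 0.945). The 2 most abundant genes of the list were Gramd1a, which moves cholesterol from the plasma membrane, and Npc1, which exports it from lysosomes. Gramd1a was at 147, 149 and 142 CPM in null, against 166 and 219 CPM in WT (edgeR adjusted p = 0.153, log2 fold change -0.40, SE 0.12). Npc1 was at 116, 127 and 113 CPM in null, against 116 and 136 CPM in WT (log2 fold change -0.09, SE 0.11).

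**Figure D3:**
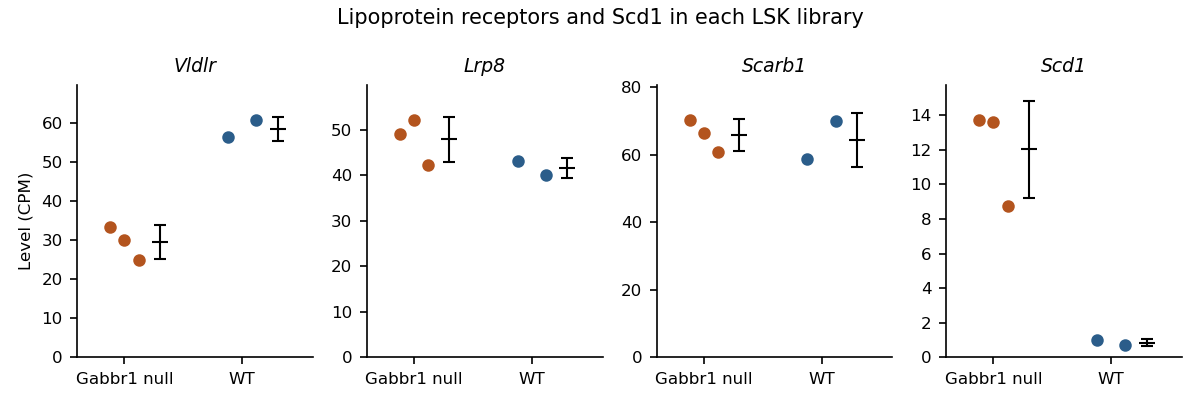
Level in CPM (y axis, from 0) of 3 lipoprotein receptors and Scd1, with 1 point per library, Gabbr1 null on the left (n = 3) and WT on the right (n = 2); black marks give the mean and SD. Vldlr lies at 24.8 to 33.4 CPM in null against 56.3 and 60.7 CPM in WT, Scd1 lies at 8.75 to 13.7 CPM in null against 0.985 and 0.712 CPM in WT, and Lrp8 and Scarb1 overlap between groups.

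Genes of efflux, storage and oxysterols passed in 0 of 8 tested cases by any of the 3 tools, and 2 were higher at the unadjusted threshold, against 7.99% of all genes tested. The oxysterol-sensing receptor gene Nr1h2 (LXR beta) was at 84.2, 79.7 and 76.7 CPM in null, against 88.6 and 99.1 CPM in WT (edgeR adjusted p = 0.413, log2 fold change -0.23, SE 0.11). Its target Abcg1, a cholesterol exporter, was at 136, 153 and 146 CPM in null, against 129 and 158 CPM in WT (log2 fold change 0.02, SE 0.12). Abca1, of the same list and named after its values were seen, was at 70.6, 61.8 and 59.8 CPM in null, against 51.32 and 51.55 CPM in WT. Its groups did not overlap, and it did not pass (edgeR adjusted p = 0.268, log2 fold change 0.32, SE 0.12). Apoe, the apolipoprotein bound by Vldlr and named after its values were seen, was at 90.6, 76.4 and 70.9 CPM in null, against 51.2 and 60.2 CPM in WT. Its groups did not overlap, and its log2 fold change, 0.51, missed the threshold (edgeR adjusted p = 0.079).

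Of 10 tested fatty acid genes that SREBP also regulates, 1 was higher and 0 were lower, against 2.15% and 0.334% of tested genes. It was Scd1 (chromosome 19, 44394455 to 44407879), a desaturase that makes monounsaturated fatty acids, with 103, 103 and 71 counts in null against 8 and 5 in WT. Its level was 12.02 ± 2.83 CPM in null (SD, n = 3) and 0.848 ± 0.193 CPM in WT (SD, n = 2). That is 3.78 higher on the log2 scale with an SE of 0.38 (edgeR adjusted p = 0.000343). At so few WT counts Scd1 met the filter on low counts only through the null libraries, and a stricter filter left it untested. Fasn, fatty acid synthase, was at 328, 367 and 334 CPM in null, against 344 and 467 CPM in WT, and Scd2, the abundant desaturase paralog, at 421, 536 and 466 CPM in null, against 508 and 576 CPM in WT. Neither passed (edgeR adjusted p = 0.526 and 0.611). The sums of B lineage, endothelial and stromal, and cartilage markers given above were higher in null together with Scd1, and their part in the Scd1 value was not tested.

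**Figure D4:**
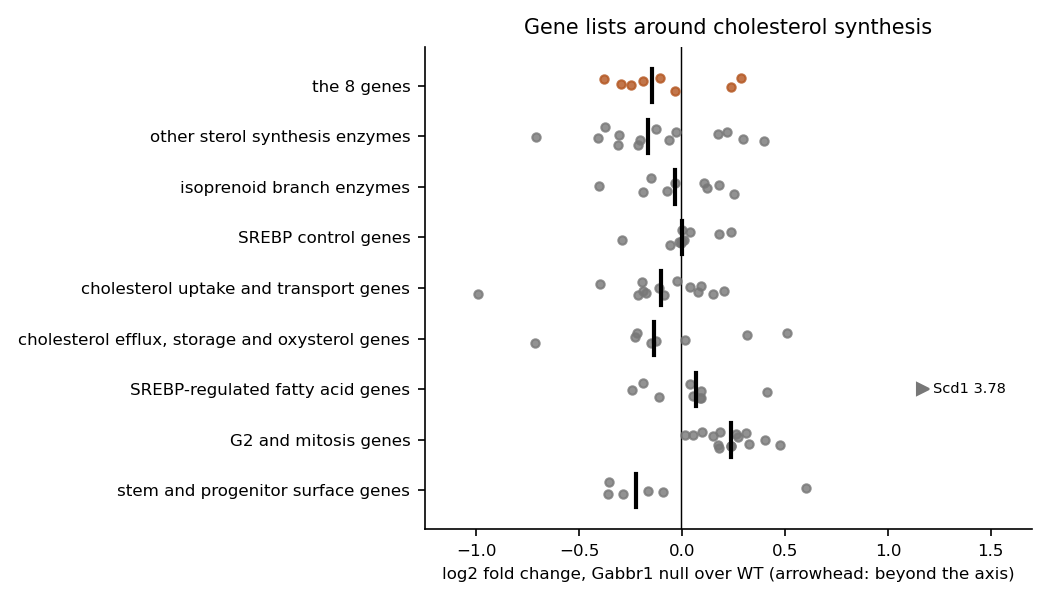
Log2 fold change of Gabbr1 null over WT (x axis) for each tested gene of 9 lists, with 1 point per gene and a black bar at the list median; the thin line is the median of all tested genes, and the arrowhead marks Scd1 at 3.78. The 8 genes lie between -0.38 and 0.29, and Vldlr at -0.99 is the leftmost point.

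Over the 6 lists around the pathway, 65 of 69 genes were tested and 2 passed, against 2.48% of all tested genes. The 2 were Vldlr and Scd1, and Scd1 met the filter on low counts only through the null libraries. Nr1h3, Ch25h and Me1 were among those too low to test, with at most 7 counts in any library. Proliferation was read from 15 G2 and mitosis genes, a class that tracks dividing cells. All 15 had positive log2 fold changes with a median of 0.24 beside -0.15 for the 8 sterol genes, while 6629 of the 13467 tested genes were positive. 0 of 15 passed in edgeR, and 6 were higher at an unadjusted p under 0.05, against 7.99% of tested genes. The most abundant, Top2a and Mki67, had log2 fold changes of 0.27 ± 0.12 and 0.10 ± 0.13 (SE). A list of 6 surface genes of stem and progenitor cells (Kit, Ly6a, Cd34, Flt3, Slamf1 and Cd48) had a median of -0.23, and 0 passed in edgeR. Of these 6, 2 were lower at an unadjusted p under 0.05, against 4.84% of tested genes.

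The genes with the most similar profile were sought among 10191 protein-coding genes of at least 5 CPM outside the lists, by the root mean square difference from the mean of the 8 centred log2 profiles over 5 libraries. That mean profile was -0.11, 0.03 and -0.02 in null and 0.14 and -0.04 in WT, so WT library 1 stood highest. The nearest were Emb (0.00939), Pdxdc1 (0.0196), Tox (0.0217), Scarb2 (0.0224) and Setdb1 (0.0237), on the log2 scale. The 8 genes themselves lay between 0.13 for Lss and 0.235 for Hmgcs1 from their own mean.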

How the data were processed

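RNA of sorted LSK cells was sequenced as 5 libraries, 3 Gabbr1 null and 2 WT. The submitters' processing notes name STAR, featureCounts and the mm10 build; no version, annotation release or strand setting is stated there. The table deposited by the authors holds unnormalized counts, whole numbers for each gene. Symbols, coordinates and exon lengths come from GENCODE M21, which matched 99.5% of identifiers. Total counts were 6972753 to 8150774. Replicates of a group differed beyond sampling noise (chi-square per degree of freedom 7.61 to 12).

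Genes were kept with filterByExpr, scaled with TMM and tested across the whole table in edgeR 4.0.16 (R 4.3.3; glmQLFit and glmQLFTest), genotype being the only term. Adjusted p is Benjamini-Hochberg over the 13467 tested genes, with a threshold of 0.05; SEs come from the F statistic, and 95% intervals from the SE and the total degrees of freedom. Log2 CPM used a prior count of 2. Alternatives were RLE and upper quartile factors, other filters, DESeq2 1.42.0, limma-voom (limma 3.58.1), markers of other cell types left out before scaling, and each library left out in turn. The code was tested on simulated counts. Replicate numbers were given in accession order, so no samples were paired.

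The 8 genes and all lists were chosen with earlier results of these data known. Named besides the 8 were Gabbr1, pathway list genes past the threshold, the 2 most abundant genes of each list and the 5 nearest profiles; others are marked. Some genes of the lists are counted but not reported here by name.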

Additional observations from a re-analysis of the deposited data

How the results depend on the processing

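0 of the 8 genes passed, in either direction, in the edgeR fit with all libraries and in each of the 12 alternatives, where the lowest adjusted p of any of them was 0.309. Idi1 was the only one of the 8 whose log2 fold change turned sign, to 0.27 without WT library 1, and it was -0.28 without WT library 2; at so few counts its direction is not resolved. The list genes passing were Scd1 (higher) and Vldlr (lower). DESeq2 gave 2 higher (Lbr added), no filter gave 2 higher and 2 lower (Apoe and Gramd1a added), and CPM of at least 1 in every library gave 0 higher, since Scd1 was not tested. Leaving out 1 library gave 1 higher in each case and 0 to 2 lower, with 0 without WT library 2 and 2 (Gramd1a added) without WT library 1. Over all tested genes 289 were higher and 45 lower; these were 602 and 155 with no filter and 173 higher with the stricter filter. Leaving out a library gave 32 to 316 higher and 0 to 51 lower. The Gabbr1 call was lost when either WT library, or null library 2 or 3, was omitted. Where 1 WT library remained, its spread was taken from the null libraries. No paired analysis was possible because replicate numbers come from accession order. Depth limits Idi1 and Fdps most, at 30 to 55 counts per library. No outlier test was run, since groups hold 2 and 3 libraries.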

Other observations

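Hmgcs1 and Insig1, both known SREBP targets, stood at opposite ends of the 8 genes, and the pair was picked after their values were seen. Within each library, Hmgcs1 counts divided by Insig1 counts gave 1.80, 2.35 and 1.88 in null libraries 1, 2 and 3, against 1.27 and 1.27 in WT. The ratio within a library does not depend on library scaling, and the groups did not overlap; no test is given because the pair was chosen for this difference.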
